A study of Mus musculus with 7 samples.

Results

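The expression of 10 heat shock and chaperone genes was examined in mouse T-cell leukemias of 2 origins. The genes were Hsf1, Hspa1a, Hspa8, Hspa9, Hsp90aa1, Hsp90ab1, Hspd1, Hspe1, Hsph1 and Dnaja1, and every probe set annotated to exactly 1 of these symbols was taken. This gave 23 of the 45037 probe sets of the array, which belonged to 8 of the 10 genes. No probe set of the annotation used here carried the symbol Hsf1 or Hsp90ab1 alone, so the heat shock transcription factor and the constitutive cytosolic HSP90 were not analysed here. Probe sets were taken by symbol and by no measured value, but the genes were chosen with earlier results of these data known.

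C57Bl/6 mice were taken when terminally ill, their leukemic tissue was made into a cell suspension, and the RNA of each suspension was hybridized to 1 Affymetrix expression array. The ICN1 group (3 arrays) was bone marrow from mice with leukemia induced by ICN1, a constantly active fragment of NOTCH1 that acts in the nucleus. The TEL-JAK2 group (4 arrays) was thymus from mice with leukemia induced by TEL-JAK2, a fusion protein in which the kinase JAK2 is constantly active. Since each oncogene comes with its own tissue, genotype and tissue cannot be told apart. The age of the mice, the promoter or vector behind each oncogene and any sorting of the cells were not stated in the labels. Replicate numbers follow the accession order and only name an array. Nothing in the labels says plainly that a group's arrays come from different mice. Sex-linked transcripts, given below, differed among the arrays of each group. A p-value here reflects the spread among these samples, part of which may be technical. In such suspensions fewer cells of a type and less RNA per cell cannot be told apart.

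Values are log2 expression levels from RMA, a method that corrects background, brings all arrays to a common distribution and summarizes the probes of each probe set. Differences are TEL-JAK2 minus ICN1 on this log2 scale with the standard error (SE) of a limma fit to all 45037 probe sets, and the threshold for a call was an adjusted p (Benjamini-Hochberg) under 0.05. Array medians lay between 5.437 and 5.501, and Pearson's r between arrays of a group lay between 0.97 and 0.99. Of all probe sets, 10.3% were called lower in TEL-JAK2 and 9.26% were called higher. ICN1 replicates 1 and 2 held both the X-inactivation transcript Xist (11.51 and 11.78) and the Y-linked transcript Eif2s3y (8.93 and 9.41), while ICN1 replicate 3 held Xist at 12.09 and Eif2s3y at 3.25. TEL-JAK2 replicates 1 to 3 held Xist without Eif2s3y (at most 3.29), and TEL-JAK2 replicate 4 held Eif2s3y (10.23) with Xist at 5.19. Counts or differences are therefore also given without ICN1 replicates 1 and 2, in a fit where the remaining ICN1 array is assumed to vary like the TEL-JAK2 arrays.

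Molecular chaperones bind unfolded protein and help it fold, cross membranes or reach degradation. In the cytosol HSP70 proteins and their HSP40 partners take up newly made and damaged chains, the HSP110 proteins recharge HSP70 with nucleotide, and HSP90 finishes client proteins, many of which are kinases such as JAK2 and its oncogenic forms. In the mitochondrial matrix the HSP70 mortalin (Hspa9) pulls imported chains through the inner membrane, and the chaperonin made of HSP60 (Hspd1) and its lid HSP10 (Hspe1) folds them. HSF1 drives many of these genes under heat or proteotoxic stress by binding inverted repeats of nGAAn.

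Promoter windows of 300 bases (250 before and 50 after the annotated start) were held in the RefSeq table of build GRCm38.p6 for 5 of the 10 genes, Hspa1a, Hspd1, Hspe1, Hsph1 and Dnaja1, in 9 windows. The windows of 4 genes are printed 5′ to 3′ on the gene's strand because they hold the letters bound by heat shock factors in different arrangements, and because the Hspe1 window largely coincides with one of Hspd1. Capitals mark TTCNNGAA and GAANNTTC, the possible pairings of neighbouring inverted repeats, each of which is its own reverse complement so that a match lies on both strands, and CACGTG, the E box of MYC-type factors.
Hspe1, chr1:55087898-55088197, plus strand: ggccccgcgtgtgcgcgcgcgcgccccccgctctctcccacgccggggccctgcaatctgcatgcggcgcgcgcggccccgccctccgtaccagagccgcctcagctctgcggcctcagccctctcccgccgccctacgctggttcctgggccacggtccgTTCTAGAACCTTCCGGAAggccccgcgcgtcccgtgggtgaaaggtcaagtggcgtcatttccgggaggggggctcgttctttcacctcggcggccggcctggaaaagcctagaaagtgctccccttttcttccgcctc
Hsph1, chr5:149636287-149636586, minus strand: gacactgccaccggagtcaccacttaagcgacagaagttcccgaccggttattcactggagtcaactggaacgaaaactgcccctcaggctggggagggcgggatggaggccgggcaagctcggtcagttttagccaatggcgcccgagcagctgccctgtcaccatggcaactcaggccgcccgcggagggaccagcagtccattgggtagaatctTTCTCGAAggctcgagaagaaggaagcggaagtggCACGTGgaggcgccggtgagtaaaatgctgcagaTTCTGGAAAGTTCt
Dnaja1, chr4:40722218-40722517, plus strand: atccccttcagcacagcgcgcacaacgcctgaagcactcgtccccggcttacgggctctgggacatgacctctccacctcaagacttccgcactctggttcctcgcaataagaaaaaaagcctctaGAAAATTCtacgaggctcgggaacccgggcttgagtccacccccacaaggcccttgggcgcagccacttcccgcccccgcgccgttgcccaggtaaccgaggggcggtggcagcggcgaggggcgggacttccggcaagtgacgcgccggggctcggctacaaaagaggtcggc
Hspa1a, chr17:34972107-34972406, minus strand: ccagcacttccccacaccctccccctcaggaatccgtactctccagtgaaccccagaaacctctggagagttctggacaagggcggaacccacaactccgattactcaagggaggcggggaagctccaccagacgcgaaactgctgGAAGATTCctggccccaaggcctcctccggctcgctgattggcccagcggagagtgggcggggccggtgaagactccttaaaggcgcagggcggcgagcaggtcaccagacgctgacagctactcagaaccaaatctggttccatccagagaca

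The Hspe1 window held 2 matches of TTCNNGAA and 1 of GAANNTTC, overlapping in 1 block that starts 89 bases before the annotated start. It shares 285 of its 300 bases with a window of Hspd1 that reads the other strand (chr1:55087883-55088182, minus strand). The block lies between the annotated starts of these HSP60 and HSP10 windows. The other Hspd1 window, not printed, held a CACGTG that starts 80 bases before its annotated start, and neither TTCNNGAA nor GAANNTTC. The printed Hsph1 window held 2 matches of TTCNNGAA, 1 of GAANNTTC and a CACGTG. Its first TTCNNGAA starts 33 bases before the annotated start. The other TTCNNGAA overlaps the GAANNTTC, and this pair and the CACGTG lie after the annotated start. Dnaja1 and Hspa1a each had 1 GAANNTTC in the printed window and no TTCNNGAA. Over all 32851 windows of the table, 8.52% held TTCNNGAA, 7.86% held GAANNTTC and 7.15% held CACGTG. A run of 3 alternating units, TTCNNGAANNTTC or GAANNTTCNNGAA, was found in 0.603% of all windows and in 4 of the 9 member windows, which are the overlapping Hspe1 and Hspd1 windows and 2 overlapping windows of Hsph1. The table also gave the window of Hspa1b, a near-identical copy of Hspa1a, which differs from that of Hspa1a at 4 of 300 positions. A match describes the letters and shows no binding.

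Of the 23 probe sets, 8 were called lower in TEL-JAK2, where 10.3% of all probe sets were lower, and 0 were called higher, where 9.26% of all were higher. At an unadjusted limma p under 0.05 the counts were 12 lower and 0 higher. A test with unequal variances gave 9 lower and 0 higher at an unadjusted p. At an adjusted p under 0.05 it gave 1 lower and 0 higher, beside 1257 lower and 1009 higher of all probe sets. The share of all probe sets at an unadjusted p was not counted. The 8 belonged to Hspd1 (1 of 1 probe set), Hspa9 (4 of 5) and Hsp90aa1 (3 of 5). The remaining 15 were not called, and 3 of those lay below the median of every array, 1 of Hspa1a and 2 of Hsp90aa1. The groups did not overlap for 9 probe sets, against 30.7% of all probe sets. The median difference of the 23 was -0.46, beside a median of 0.04 over all 45037, and 17 of the 23 differences were below 0. Called differences of at least 2-fold numbered 5, against 4158 of all 45037 probe sets. Without ICN1 replicates 1 and 2, 1 ICN1 array remains. The 8 measured members, at 1 probe set each, then had a median difference of -0.94, beside 0.03 over all genes. Over all arrays these medians were -0.69 and 0.04. The 8 called probe sets stayed lower under each scaling tried, namely median centring, a repeated quantile normalization and CD3 centring, while small differences depended on it. Centring the arrays on the mean of 4 CD3 genes (Cd3d, Cd3e, Cd3g and Cd247, whose mean was higher in TEL-JAK2) moved every difference by -0.62, made 21 of the 23 lower and turned the 6 differences above 0, which were probe sets of Hspa1a, Hspa8 and Dnaja1 and a dim one of Hsp90aa1, below 0. With that centring 1558 of all probe sets were called higher and 30005 lower, in place of 4172 and 4660.

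**Figure D1:**
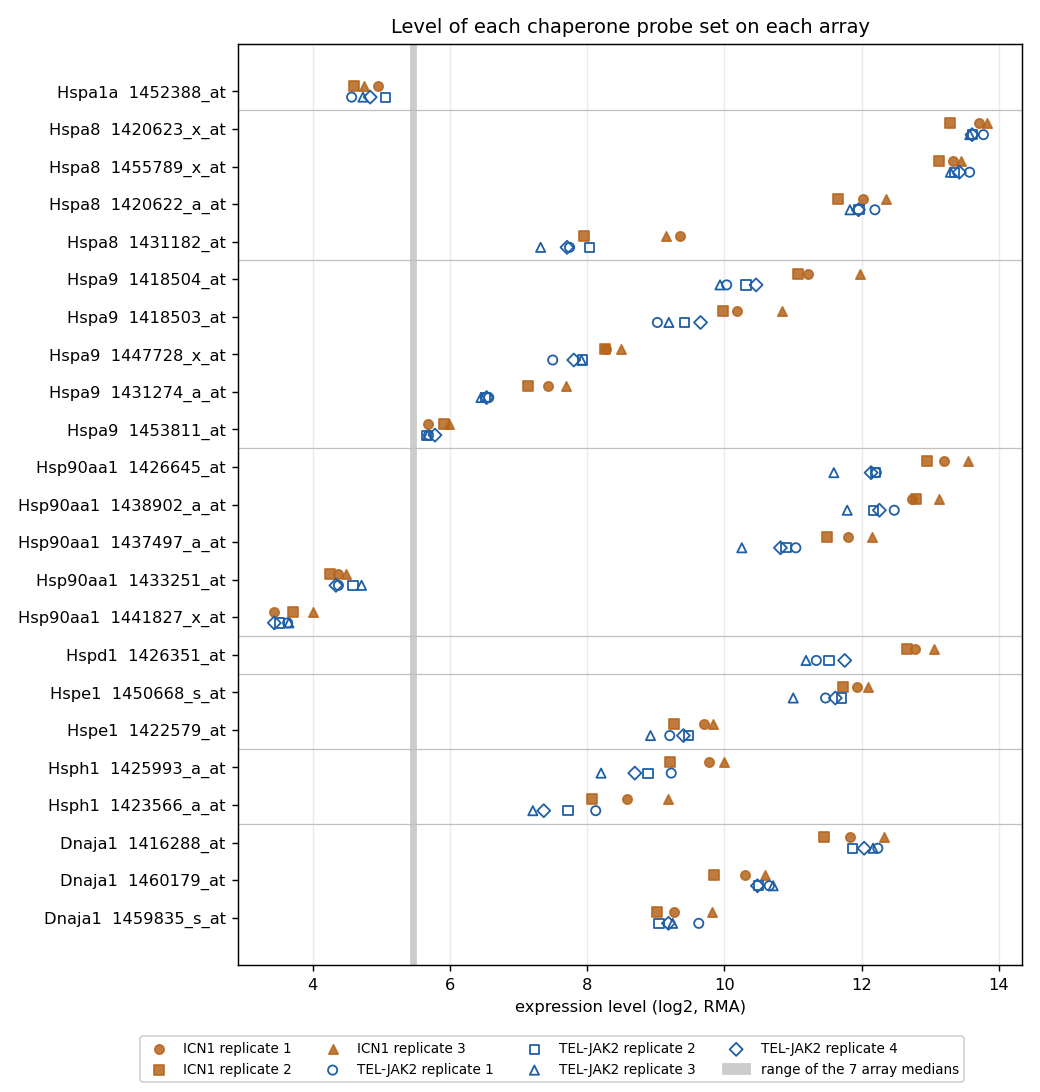
Log2 expression level (x axis) of each of the 23 probe sets (rows) on each array. Filled symbols are the 3 ICN1 arrays, open symbols the 4 TEL-JAK2 arrays, and the grey band spans the array medians (5.437 to 5.501). The Hspd1 symbols form separate groups (12.67 to 13.06 against 11.19 to 11.75), while the groups overlap on the brightest Hspa8 probe sets; levels of different rows are not comparable.

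**Figure D2:**
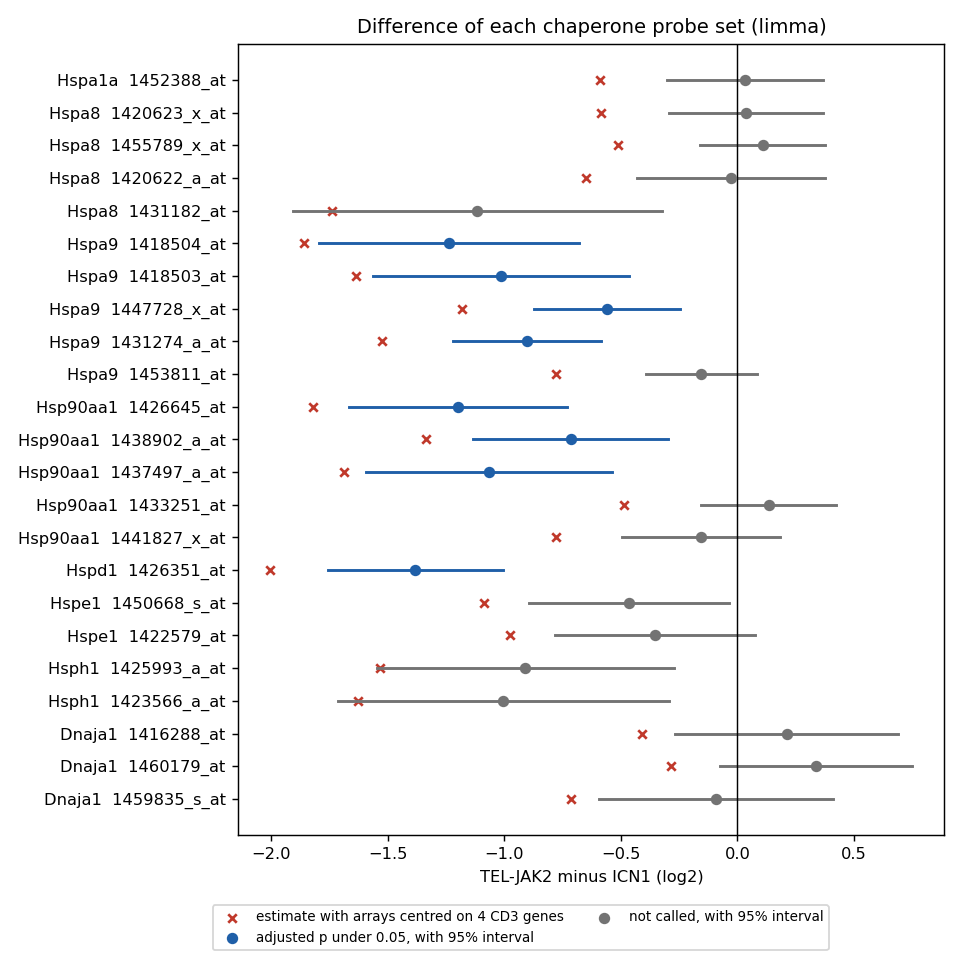
Difference between TEL-JAK2 and ICN1 (x axis, log2) for each of the 23 probe sets with its 95% confidence interval from limma. Blue marks the 8 called lower, grey the 15 not called, and red crosses give the estimate after centring on 4 CD3 genes, which lies 0.62 lower in every row and below 0 in all of them.

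The cytosolic HSP70 genes gave no called probe set. Hspa8, which encodes the constitutive HSC70 that handles new and vesicle-coat proteins in every cell, was measured by 4 probe sets. Its brightest, 1420623_x_at, read 13.70, 13.29 and 13.82 on the ICN1 arrays and 13.78, 13.61, 13.58 and 13.61 on the TEL-JAK2 arrays. The groups overlapped throughout, and the difference was 0.04 ± 0.14 with a 95% interval from -0.29 to 0.37 (adjusted p = 0.887). Probe set 1455789_x_at differed by 0.11 ± 0.12 (interval -0.16 to 0.38, adjusted p = 0.580) and 1420622_a_at by -0.03 ± 0.17 (interval -0.43 to 0.38, adjusted p = 0.938). The widest of these intervals ran from -0.43 to 0.38, short of the difference of Hspd1 given below. With CD3 centring the 3 probe sets read -0.58, -0.51 and -0.65 and were called lower.

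The dimmest Hspa8 probe set, 1431182_at, did not follow the others. It read 9.35, 7.96 and 9.15 in ICN1 and 7.74, 8.04, 7.32 and 7.71 in TEL-JAK2. ICN1 replicates 1 and 3 lay above all TEL-JAK2 arrays, while ICN1 replicate 2 lay among them. The difference was -1.12 ± 0.34 (interval -1.91 to -0.33, adjusted p = 0.058) and missed the threshold. With ICN1 replicate 2 removed it was called (-1.55, adjusted p = 0.0051), and likewise with ICN1 replicates 1 and 2 removed (-1.45, adjusted p = 0.0268). In the alternative without cross-hybridizing probe sets (_x_at or _s_at), Hspa8 kept 1420622_a_at (-0.03) and 1431182_at (-1.12), neither called. Which Hspa8 transcripts each probe set covers was not examined.

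Hspa1a encodes the stress-inducible HSP70, whose transcript is scarce in unstressed cells. Its probe set 1452388_at read 4.96, 4.61 and 4.74 in ICN1 and 4.57, 5.06, 4.73 and 4.84 in TEL-JAK2, below the median of every array. At such levels RMA compresses differences, and the fitted value of 0.03 ± 0.14 (interval -0.30 to 0.37, adjusted p = 0.910) describes a signal near background. The near-identical copy Hspa1b had 3 probe sets of its own, and cross-hybridization between the copies cannot be separated here. The brightest of them, 1452318_a_at, read 5.42, 5.45 and 5.65 in ICN1 and 5.31, 6.88, 5.05 and 6.38 in TEL-JAK2. TEL-JAK2 replicates 2 and 4 were thus above all ICN1 arrays and TEL-JAK2 replicates 1 and 3 below them, and the difference was 0.40 ± 0.43 (adjusted p = 0.586). In the remaining Hspa1b probe sets, 1427126_at and 1427127_x_at, TEL-JAK2 replicate 2 was also the highest array, at 5.65 and 5.78.

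Hsph1 encodes HSP110 (HSP105), a nucleotide exchange factor for HSP70 that also helps to dissolve aggregates. Its probe set 1425993_a_at read 9.777, 9.211 and 9.999 in ICN1 and 9.226, 8.887, 8.203 and 8.695 in TEL-JAK2. The overlap came from ICN1 replicate 2 and TEL-JAK2 replicate 1, where the ICN1 array was the lower of the pair by 0.01. Probe set 1423566_a_at read 8.58, 8.08 and 9.18 in ICN1 and 8.13, 7.72, 7.21 and 7.37 in TEL-JAK2, with overlap between the same arrays. The differences were -0.91 ± 0.27 (interval -1.55 to -0.27, adjusted p = 0.0556) and -1.01 ± 0.30 (interval -1.72 to -0.30, adjusted p = 0.0570), so neither was called. Leaving out ICN1 replicate 2 brought both below the threshold (adjusted p = 0.0377 and 0.0333), as did leaving out TEL-JAK2 replicate 1 (0.0451 and 0.0473). The second was also called without ICN1 replicates 1 and 2 (0.0442).

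Dnaja1 encodes an HSP40, a co-chaperone that delivers substrates to HSC70 and starts its ATP cycle. Probe set 1416288_at read 11.83, 11.45 and 12.32 in ICN1 and 12.24, 11.87, 12.17 and 12.04 in TEL-JAK2. The TEL-JAK2 arrays lay inside the range of the ICN1 arrays, and the difference was 0.21 ± 0.21 (interval -0.27 to 0.69, adjusted p = 0.539). Probe set 1460179_at differed by 0.34 ± 0.18 (interval -0.07 to 0.75, adjusted p = 0.239) and 1459835_s_at by -0.09 ± 0.22 (interval -0.60 to 0.41, adjusted p = 0.816). No Dnaja1 probe set was called in any fit that left out 1 array.

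Hsp90aa1 encodes HSP90-alpha, the inducible cytosolic HSP90, and was lower in TEL-JAK2 on each of its 3 bright probe sets. Probe set 1426645_at read 13.19, 12.96 and 13.55 in ICN1 and 12.21, 12.20, 11.60 and 12.14 in TEL-JAK2. Every ICN1 array was above every TEL-JAK2 array, TEL-JAK2 replicate 3 was the lowest, and the difference was -1.20 ± 0.20 (interval -1.67 to -0.73, adjusted p = 0.0061), or 2.30-fold higher in ICN1. Leaving out 1 array at a time kept this call with adjusted p between 0.0089 and 0.0209.

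On probe set 1437497_a_at the Hsp90aa1 levels were 11.81, 11.49 and 12.16 in ICN1 and 11.04, 10.90, 10.25 and 10.82 in TEL-JAK2. The groups were again apart, by -1.07 ± 0.23 (interval -1.59 to -0.54, adjusted p = 0.0156) and 2.09-fold. Probe set 1438902_a_at read 12.74, 12.80 and 13.13 in ICN1 and 12.48, 12.17, 11.79 and 12.26 in TEL-JAK2. This gave the smallest gap of the 3, -0.72 ± 0.18 (interval -1.13 to -0.30, adjusted p = 0.0293) or 1.64-fold, and its call depended on several arrays. Removing ICN1 replicate 1, 2 or 3 gave adjusted p = 0.0509, 0.0601 or 0.0839, removing TEL-JAK2 replicate 2 gave 0.0679, and removing ICN1 replicates 1 and 2 together gave 0.0755. The other Hsp90aa1 probe sets, 1433251_at (group means 4.37 ± 0.12 and 4.50 ± 0.18, SD) and 1441827_x_at (3.72 ± 0.29 and 3.56 ± 0.10, SD), lay below all array medians and gave no usable difference (adjusted p = 0.514 and 0.513).

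Among the mitochondrial members, Hspd1, which encodes the ring subunit HSP60, was separated most widely. Its probe set 1426351_at read 12.78, 12.67 and 13.06 in ICN1, a mean of 12.83 ± 0.20 (SD, n = 3), and 11.34, 11.52, 11.19 and 11.75 in TEL-JAK2, a mean of 11.45 ± 0.24 (SD, n = 4). The lowest ICN1 array was 0.91 above the highest TEL-JAK2 array. The difference was -1.38 ± 0.16 (interval -1.759 to -1.005, adjusted p = 0.0014), or 2.61-fold higher in ICN1. It was called in each of the 18 alternative settings run for it, with adjusted p up to 0.0276, and without any 1 array with adjusted p between 0.0016 and 0.0067.

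Hspe1, whose product HSP10 closes the HSP60 ring and whose promoter window is the one shared with Hspd1 above, differed less. Probe set 1450668_s_at read 11.932, 11.725 and 12.087 in ICN1 and 11.475, 11.704, 11.003 and 11.616 in TEL-JAK2. The groups did not overlap, but only 0.02 separated the lowest ICN1 array from the highest TEL-JAK2 array, and the difference was -0.46 ± 0.18 (interval -0.89 to -0.04, adjusted p = 0.127). Probe set 1422579_at differed by -0.35 ± 0.18 (interval -0.78 to 0.08, adjusted p = 0.237) with overlapping groups. Neither was called in any fit that left out 1 array. With CD3 centring both were called lower, at -1.09 and -0.98 (adjusted p = 0.0092 and 0.0127).

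Hspa9 encodes mortalin, the motor of protein import into the matrix, and 4 of its 5 probe sets were called lower in TEL-JAK2. The brightest, 1418504_at, read 11.22, 11.08 and 11.98 in ICN1 and 10.03, 10.32, 9.94 and 10.46 in TEL-JAK2. The groups were apart by -1.24 ± 0.24 (interval -1.79 to -0.68, adjusted p = 0.0108), 2.36-fold, with ICN1 replicate 3 the highest array. Probe set 1431274_a_at read 7.44, 7.14 and 7.69 in ICN1 and 6.57, 6.52, 6.45 and 6.54 in TEL-JAK2, where the arrays spanned 0.11. Its difference was -0.90 ± 0.14 (interval -1.22 to -0.59, adjusted p = 0.0039), 1.87-fold. Probe set 1418503_at differed by -1.02 ± 0.24 (adjusted p = 0.0219, lost without TEL-JAK2 replicate 1 at 0.0600 or replicate 3 at 0.0586). For 1447728_x_at the difference was -0.56 ± 0.13 (adjusted p = 0.0252, lost without ICN1 replicate 1 at 0.0553, without replicate 3 at 0.0736 and without replicates 1 and 2 at 0.0852). The dimmest, 1453811_at, averaged 5.86 ± 0.16 (SD) in ICN1 and 5.70 ± 0.05 (SD) in TEL-JAK2, near the array medians, and was not called (adjusted p = 0.351).

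Ratios between chaperones on the same array are not moved by adding a constant to an array, as median or CD3 centring does, and 5 of them were compared after the values above had been seen. The level of such a ratio has no meaning of its own because probe sets differ in efficiency, so only its difference between the groups is given. The log2 ratio of Hspd1 over Hspe1 was 0.84, 0.94 and 0.97 in ICN1 and -0.13, -0.18, 0.19 and 0.14 in TEL-JAK2, a difference of -0.92. Relative to HSP10, HSP60 transcript was thus lower on all 4 TEL-JAK2 arrays than on any ICN1 array. Against the brightest Hspa8 probe set, Hspd1 differed by -1.42, Hspa9 by -1.28, Hsp90aa1 by -1.24 and Hsph1 by -0.95. That Hspa8 probe set itself differed by 0.04, so the ratios against it largely restate the differences given above. They depend on this choice, since the dimmest Hspa8 probe set, 1431182_at, differed by -1.12 and was not used. In each of the 5 ratios the groups did not overlap, and the exact permutation test over the 7 arrays gave p = 0.0571 (two-sided, also after Benjamini-Hochberg adjustment over the 5). That is the smallest p that 3 against 4 arrays can give, so this test could not pass 0.05.

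**Figure D3:**
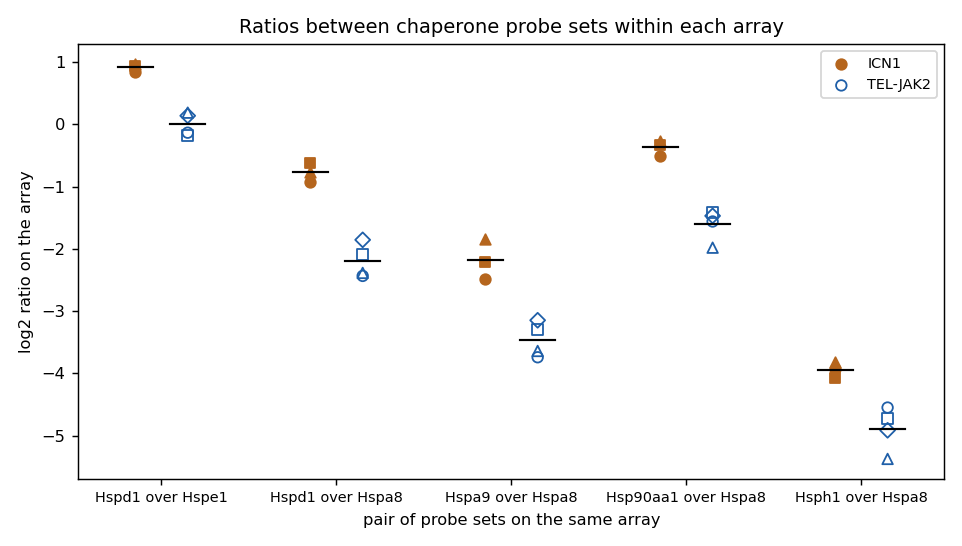
Log2 ratio of chaperone probe sets within each array (y axis) for 5 pairs (x axis). Filled brown symbols are ICN1 arrays, open blue symbols TEL-JAK2 arrays, the symbol shape marks the replicate as in the plot of levels, and bars are group means. In each pair the TEL-JAK2 arrays lie below the ICN1 arrays, by 0.92 in the mean for Hspd1 over Hspe1 on the log2 scale.

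Within ICN1 the members were high or low on the same arrays. ICN1 replicate 3 was the highest ICN1 array for 21 of the 23 probe sets, against 38.2% of all probe sets, and ICN1 replicate 2 was the lowest for 20 of 23, against 33.8% of all. Over the 20 probe sets not below the array medians, the median deviation from the group mean was 0.32 in ICN1 replicate 3 and -0.33 in ICN1 replicate 2. Among TEL-JAK2 arrays, replicate 3 was the lowest for 14 of 23 probe sets (22.7% of all), with a median deviation of -0.20, while replicates 1, 2 and 4 were mixed (14, 13 and 13 of 20 above the group mean). Across all probe sets at or above the median level, the median deviation of these arrays was 0.04, -0.02 and 0.02. Probe sets of 1 gene share their transcript and these counts are a description.

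Levels of growth and other stress genes on the same arrays are given for comparison. The mean level of 9 proliferation genes was 12.08, 12.01 and 11.77 on ICN1 replicates 1, 2 and 3, so ICN1 replicate 3 was the lowest there and the highest for chaperones. Among TEL-JAK2 arrays it was 10.70, 10.33, 9.78 and 10.67, lowest in replicate 3, as for chaperones. The mean of 10 stress genes was 8.59, 8.98 and 8.22 in ICN1 and 6.83, 7.27, 7.19 and 6.96 in TEL-JAK2. The part of such differences in the member values was not tested.

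**Figure D4:**
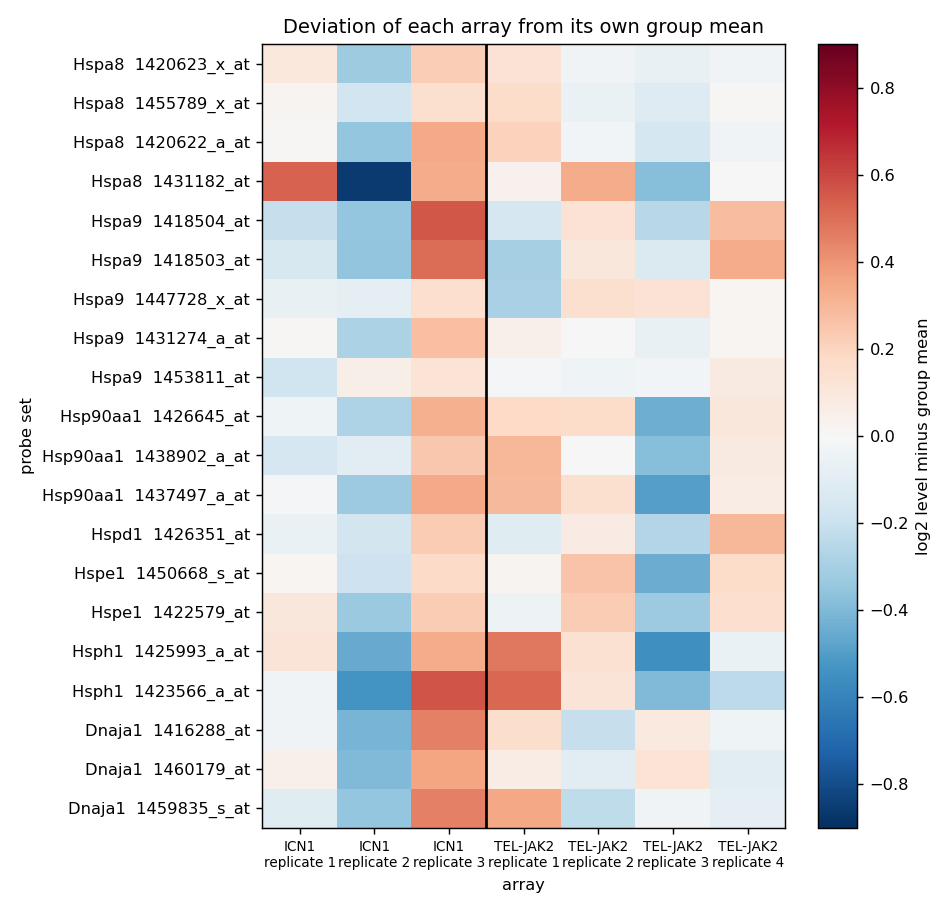
Deviation of each array (columns) from the mean of its own group, in log2 units by colour, for the 20 member probe sets not below the array medians (rows). ICN1 replicate 3 is above its group mean in 20 of 20 rows, ICN1 replicate 2 in 1, and TEL-JAK2 replicate 3 in 3.

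Genes whose 7-array pattern was most like that of a member were found by the root mean square difference between deviations from each gene's own mean, over 18193 genes with 1 probe set each. For Hspd1 these were Golim4 (0.085), Suclg2 (0.091), Usp14 (0.093), Atp23 (0.093) and Lipt2 (0.104), which differed between the groups by -1.25 to -1.46. Suclg2 encodes a subunit of the matrix enzyme succinyl-CoA ligase, Lipt2 a mitochondrial lipoyl transferase and Usp14 a proteasome-bound deubiquitinase. For Hspa1a they were Cavin3 (0.044), Tssk3 (0.052), Adh6a (0.052), Il2 (0.052) and Asz1 (0.054), with means over the arrays of 3.69 to 4.94. These are as dim as Hspa1a itself.

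Other genes of the chaperone network were counted at 1 probe set per gene, the one with the highest mean, among 18193 genes of which 12.2% were called lower in TEL-JAK2 and 11.9% higher. Of 115 measured genes in 9 lists, 28 were lower, 13 were higher and 74 were not called, with a median difference of -0.17 beside 0.04 over all genes. At this level 3 of the 8 measured members were lower. With CD3 centring 85 of the 115 were lower and 1 was higher, beside 11410 lower and 787 higher of all 18193 genes. Without ICN1 replicates 1 and 2 the counts were 16 lower and 5 higher, beside 1557 lower and 1039 higher of all genes. The lists were assembled with earlier results of these data known, and their counts are descriptions.

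The mitochondrial list had the most members on 1 side, with 9 of 19 genes lower, 1 higher and 9 not called, and 18 of the 19 differences below 0 (median -0.41). The mitochondrial disaggregase gene Clpb fell from 8.26 ± 0.04 (SD) in ICN1 to 6.87 ± 0.30 (SD) in TEL-JAK2, a difference of -1.38 ± 0.16 (adjusted p = 0.0014). Htra2, an intermembrane-space protease, differed by -1.13 ± 0.15 (adjusted p = 0.0023), and Afg3l2, a subunit of the inner-membrane m-AAA protease, by -1.02 ± 0.14 (adjusted p = 0.0024). The matrix proteases Lonp1 and Clpp, the mitochondrial HSP90 Trap1, the HSP40 Dnaja3, and the import genes Timm44 and Timm17a were lower too, Timm17a with the call lost in all fits without 1 array but that without ICN1 replicate 2 (adjusted p up to 0.0905). Dnlz, a partner of mortalin, was higher (0.43 ± 0.13, adjusted p = 0.0463), with its call lost in all such fits but that without ICN1 replicate 1 (up to 0.122) and a difference of -0.19 with CD3 centring. Tomm20, a receptor of the outer membrane, differed by -0.04 ± 0.08 and Clpx, the partner of ClpP, by -0.26 ± 0.17 (adjusted p = 0.770 and 0.322). Probe sets of Tomm20 disagreed, since the dimmer 1423081_a_at (-0.95), 1435534_a_at (-0.57) and 1435187_at (-0.88) were called lower.

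The cytosolic chaperonin, which folds actin and tubulin, and prefoldin, which feeds it, showed 6 of 14 genes lower, 1 higher and 7 not called (median -0.43). In this list 13 of the 14 differences were below 0, much as in the mitochondrial list, beside 7987 of all 18193 genes. Vbp1, a prefoldin subunit, was lower by -0.83 ± 0.15 (adjusted p = 0.0073), Pfdn1 by -0.76 ± 0.17 (0.0180) and Tcp1, a chaperonin subunit, by -0.60 ± 0.14 (0.0181). Cct3, Cct6a and Cct8 were lower as well, and 5 of the 6 calls, all but that of Vbp1, were lost in at least 1 fit without 1 array. Pfdn1 lost its call when ICN1 replicate 1 or TEL-JAK2 replicate 1 was removed (adjusted p up to 0.0603), and Tcp1 when ICN1 replicate 1, ICN1 replicate 3 or TEL-JAK2 replicate 1 was removed (up to 0.0553). Cct6a did so when ICN1 replicate 3 was removed (0.0524), Cct3 for ICN1 replicates 1 and 3 and TEL-JAK2 replicates 1 and 2 (up to 0.0647), and Cct8 for any ICN1 array and TEL-JAK2 replicates 1 and 2 (up to 0.0675). Without ICN1 replicates 1 and 2 limma called 0 genes of this list lower (9 at an unadjusted p under 0.05). Pfdn5 went the other way by 0.89 ± 0.10 (adjusted p = 0.0012), or 0.27 and not called with CD3 centring. Pfdn2 (-0.07 ± 0.17) and Pfdn4 (-0.29 ± 0.22) were not called.

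The HSP40 list held differences in both directions, with 5 of 14 genes higher, 4 lower and 5 not called (median 0.03). Dnaja4, an HSP40 close to Dnaja1, was at 8.25 ± 0.18 (SD) in ICN1 and 4.53 ± 0.23 (SD) in TEL-JAK2, a fitted difference of -3.72 ± 0.16 (adjusted p = 1.26e-05). The TEL-JAK2 level lay below the array medians, so no fold is given, and 2 other probe sets differed by -2.01 and -4.46. Dnajb2 was lower by -2.65 ± 0.19 (adjusted p = 0.00017) and Dnajb4 by -1.81 ± 0.24 (0.0021). The fourth lower gene was Dnajc9 (-0.54 ± 0.14, adjusted p = 0.0289), whose call was lost when ICN1 replicate 1 or 3 or TEL-JAK2 replicate 2 or 3 was removed (up to 0.0923). The higher genes were Dnajc6, the clathrin-uncoating auxilin (2.56 ± 0.36), Dnajb5 (0.87 ± 0.19, lost when ICN1 replicate 2 is removed, adjusted p = 0.0518), Dnajb1, Dnajc7 and Dnajc5. With CD3 centring the list had 1 higher gene and 8 lower, and Dnajb1, the main HSP40 partner of inducible HSP70, turned from 0.62 to -0.01.

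Among 9 other HSP70 and HSP110 genes, limma called 2 lower, 0 higher and 7 in neither direction (median 0.08), with 3 lower and 2 higher at an unadjusted p under 0.05. The called genes were Hspa4, the HSP110 relative of Hsph1 (-0.85 ± 0.22, adjusted p = 0.0302, lost without any 1 TEL-JAK2 array, up to 0.0751), and Hspa14, which works at the ribosome (-0.49 ± 0.11, adjusted p = 0.0173, lost when ICN1 replicate 3 or TEL-JAK2 replicate 1 is removed, up to 0.0517). Probe sets disagreed for Hspa4, whose dimmer 1416147_at (-0.67), 1435194_at (-0.60) and 1440575_at (-0.36) were not called. Hspa4l was not called on its brightest probe set (-0.67 ± 0.25). Its dimmer 1429106_at (-0.91), 1439093_at (-0.89), 1449010_at (-0.73) and 1458385_at (-1.06) were called lower. Of 11 HSP70 co-chaperones 3 were lower, 0 were higher, also at an unadjusted p, and 8 were not called (median -0.14). Bag2 (-2.16 ± 0.21, adjusted p = 0.00053) and Bag3 (-0.98 ± 0.14, adjusted p = 0.0029) are nucleotide exchange factors of HSP70, and St13, or HIP, stabilizes its ADP state (-0.53 ± 0.16, adjusted p = 0.0472, lost without any 1 array but ICN1 replicate 2, up to 0.128). Stub1, the ubiquitin ligase CHIP, read 10.22 ± 0.10 and 10.21 ± 0.06 (SD) in ICN1 and TEL-JAK2, and Bag5 differed by 0.02 ± 0.15.

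HSP90 co-chaperones gave 2 lower, 2 higher and 13 uncalled genes of 17 measured (median -0.08). At an unadjusted limma p under 0.05 the counts were 5 lower and 5 higher. Ahsa1, the activator of the HSP90 ATPase, was lower by -0.50 ± 0.10 (adjusted p = 0.0111), and Fnip2, an inhibitor of that ATPase, by -3.15 ± 0.30 (adjusted p = 0.00054), from 8.67 ± 0.30 to 5.52 ± 0.54 (SD). Its relative Fnip1 was higher by 0.71 ± 0.19 (adjusted p = 0.0303, lost without any 1 array but TEL-JAK2 replicate 4, up to 0.0919), and Unc45a, a myosin chaperone, by 0.69 ± 0.11 (0.0041). With CD3 centring neither stayed higher, at 0.09 and 0.07. Probe sets of Unc45a disagreed, since the dimmer 1415866_at (0.46), 1458824_at (0.20) and 1459867_x_at (-0.39) were not called. Ahsa2 (-0.08 ± 0.18) and Ttc4 (0.10 ± 0.14) were not called.

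In the list of heat shock factors and regulators, Hsf2, Hsf4 and Hsf5 lay below all array medians. Hsbp1, which encodes a small protein that binds HSF1 trimers, was higher in TEL-JAK2 (1.001 ± 0.186, adjusted p = 0.0083), with levels of 9.33, 8.94 and 9.72 in ICN1 and 10.51, 10.31, 10.35 and 10.15 in TEL-JAK2. The groups did not overlap, and with CD3 centring the difference was 0.38 and not called (adjusted p = 0.185). Small heat shock proteins were dim, 5 of 8 below all array medians, and 1 of 8 was lower, Hspb6 (-0.97 ± 0.16, adjusted p = 0.0050), while 0 were higher (1 at an unadjusted p under 0.05).

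Chaperones of the endoplasmic reticulum differed from the mitochondrial list in their counts, with 3 of 19 genes higher, 1 lower and 15 not called (median -0.06), although the difference between the lists was not tested. Dnajc1 (0.69 ± 0.13, adjusted p = 0.0075) and Dnajb9 (1.003 ± 0.197, 0.0101) are HSP40s of this compartment, and Xbp1 is its stress transcription factor (1.24 ± 0.28, adjusted p = 0.0189, lost when ICN1 replicate 2, ICN1 replicate 3 or TEL-JAK2 replicate 1 is removed, up to 0.0615). A dimmer Dnajc1 probe set, 1419772_at, was called the other way (-1.40). Canx, the membrane lectin chaperone calnexin, was lower by -0.45 ± 0.09 (adjusted p = 0.0115). Sdf2l1 (-0.06 ± 0.26) and Hyou1 (0.05 ± 0.14) were not called. With CD3 centring 12 of the 19 genes were lower, where 11410 of all 18193 genes were.

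**Figure D5:**
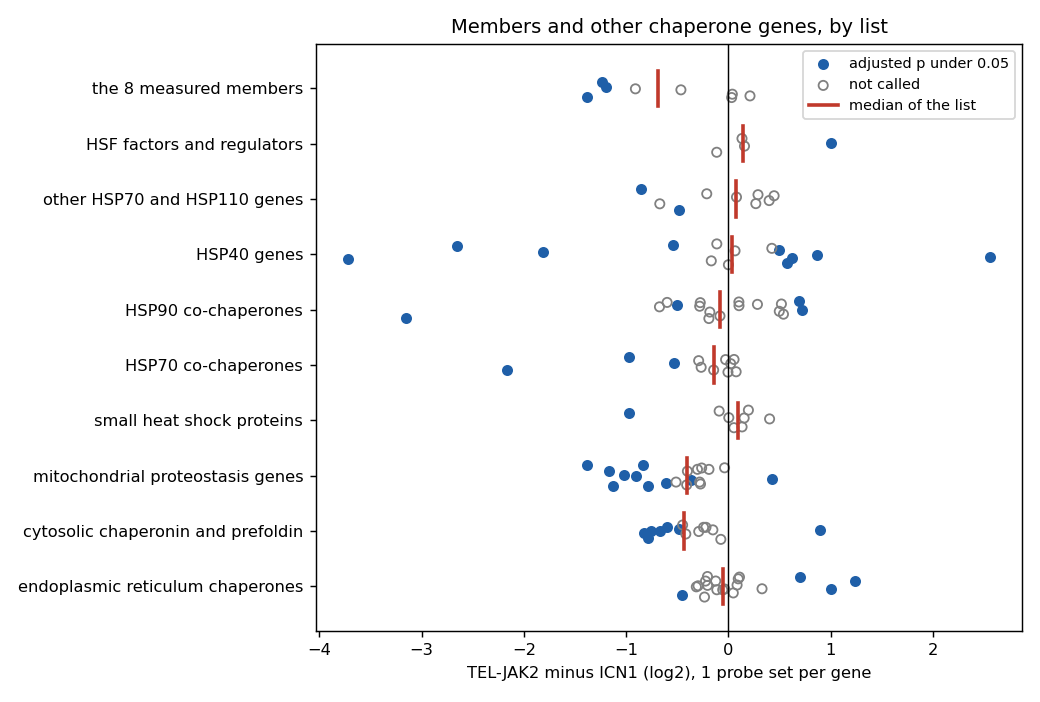
Difference between TEL-JAK2 and ICN1 (x axis, log2, deposited scaling) for the 8 measured members and for 115 other chaperone genes in 9 lists (rows), 1 probe set per gene. Blue points were called and open points were not. Red bars are list medians, at -0.41 for mitochondrial genes, -0.43 for cytosolic chaperonin and prefoldin and -0.06 for the endoplasmic reticulum. CD3 centring moves every point by -0.62.

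Other programmes moved with the same contrast, and their part in the chaperone differences was not tested. All 9 measured proliferation genes were lower in TEL-JAK2, also with CD3 centring, with mean levels of 11.77 to 12.08 in ICN1 and 9.78 to 10.70 in TEL-JAK2, led by Mki67 (-2.26 ± 0.28) and Birc5 (-2.17 ± 0.27). Without ICN1 replicates 1 and 2, which leaves 1 ICN1 array, the median difference of these genes was -1.25, in place of -1.76. Of 10 stress and integrated stress response genes 5 were lower and 0 higher, also at an unadjusted p, led by Ppp1r15a, a phosphatase subunit that reverses translational arrest (-4.36 ± 0.24), and Gadd45a (-4.25 ± 0.43). Of 13 immediate early genes, which respond within minutes to stress and handling, 1 was lower (Ier3, -2.76 ± 0.50), 2 were higher (Btg2, 1.09 ± 0.29, and Dusp1, 0.78 ± 0.22) and 10 were not called. The call of Btg2 was lost when ICN1 replicate 3 or TEL-JAK2 replicate 1, 2 or 3 was removed (adjusted p up to 0.0879) and that of Dusp1 in all fits without 1 array but that without ICN1 replicate 2 (up to 0.124). With CD3 centring 5 immediate early genes were lower and none was higher.

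Markers of the labelled cells and of other cell types were read on the same arrays. T-lineage genes averaged 11.16 to 11.83 in ICN1 and 11.80 to 12.15 in TEL-JAK2, with 5 of 9 higher and 1 lower. Erythroid genes averaged 11.05 to 11.35 in ICN1 and 5.36 to 5.83 in TEL-JAK2, with 7 of 9 lower, and the red cell membrane gene Rhag was at 11.89 ± 0.28 (SD) against 3.30 ± 0.07 (SD). Megakaryocyte (4 of 5 lower), granulocyte (5 of 12) and macrophage genes (5 of 11) were also lower in TEL-JAK2, with mean levels of 6.89 to 8.58 against 5.63 to 5.84, 5.99 to 7.59 against 5.14 to 5.55, and 8.89 to 10.25 against 6.39 to 8.66. B-lineage genes (5.83 to 7.30 against 6.40 to 7.36, 1 of 10 higher), dendritic cell genes (6.30 to 7.93 against 7.49 to 8.90, 0 of 10 called and 1 higher at an unadjusted p), thymic epithelial genes (4.86 to 5.14 against 5.05 to 5.68, 2 of 10 higher) and stromal genes (5.96 to 7.30 against 5.41 to 7.35, 1 of 10 lower) gave at most 2 called genes each. Without ICN1 replicates 1 and 2 the counts were 1 megakaryocyte, 3 granulocyte and 1 macrophage gene lower and 3 dendritic cell genes higher. With CD3 centring 1 T-lineage gene was higher and 1 lower, 1 B-lineage gene was higher and 2 lower, 1 dendritic cell gene and 6 stromal genes were lower, and 2 thymic epithelial genes were lower. The chaperones are expressed in all of these cells, and the part of other cell types in the differences of Hspd1, Hspa9 and Hsp90aa1 was not tested.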

How the data were processed

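RNA of 3 ICN1 and 4 TEL-JAK2 leukemic suspensions had been hybridized to Affymetrix arrays, 1 per suspension. The deposited table of log2 values, 1 for every probe set on every array, was made by the authors with RMA per the submitters' processing notes (version not stated). The values (2.57 to 14.86) were used as deposited. Because RMA gives every array nearly the same distribution, total RNA cannot be compared, and folds near background are compressed. Scan dates and detection calls were not used here, and the number of arrays limits the precision.

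Gene names came from the platform annotation (34945 probe sets with 1 symbol, 932 with several, 9160 with none). Differences, TEL-JAK2 minus ICN1, came from limma 3.58.1 in R 4.3.3 (lmFit, eBayes without trend, two-sided), with Benjamini-Hochberg adjustment over all 45037 probe sets for the members and over 18193 genes, 1 probe set each with the highest mean, for other lists. The script was tested on simulated arrays. The members, lists and alternatives were chosen with earlier results of these data known. Named were every member probe set, up to 3 called and 2 uncalled genes per chaperone list by adjusted p, up to 2 called genes per context or marker list, and, where the text turns on them, the genes of counts of 5 or fewer; further genes were named after their values were seen. Alternatives were other features per gene, no cross-hybridizing or dim probe sets, 3 scalings, trend and robust moderation, array weights, unequal variances, an adjusted p under 0.01, each array left out, and ICN1 replicates 1 and 2 left out. The within-array ratios were added after seeing the data. Promoter windows and motif searches used the RefSeq table of GRCm38.p6. Figures were drawn with matplotlib 3.10.9.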

Additional observations from a re-analysis of the deposited data

Results flagged for a closer look

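In TEL-JAK2, the Hsp90aa1 probe set 1426645_at on replicate 3 stood apart from the other arrays of its group, at 11.595 against 12.14 to 12.21. The gap to the nearest array was 0.878 of the group's whole range, above Dixon's 95% critical value for 4 samples. It was the single such array among the 23 member probe sets over the 4 TEL-JAK2 arrays, and chance flags about 1 in 20 groups. On the same array the proliferation genes averaged 9.78, the lowest of the 4, and the part of this in the Hsp90aa1 level was not tested. Without TEL-JAK2 replicate 3 the probe set remained called lower in TEL-JAK2.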

How the results depend on the processing

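The member count of 8 lower and 0 higher probe sets became 21 lower after centring on 4 CD3 genes, 1 with unequal variances, 3 at an adjusted p under 0.01, and 3 of 8 with 1 probe set per gene. Leaving out 1 array gave 6 to 10 lower. The other chaperone genes (28 lower, 13 higher of 115) became 85 and 1 with CD3 centring, 13 and 4 with unequal variances, 14 and 6 at an adjusted p under 0.01, 16 and 5 without ICN1 replicates 1 and 2, and 55 and 28 of 270 when all probe sets were counted. Leaving out 1 array gave 20 to 30 lower and 10 to 16 higher. With CD3 centring 4 member differences turned from above 0 to called lower: Hspa1a 1452388_at to -0.59 (adjusted p = 0.0291), Hspa8 1420623_x_at to -0.58 (0.0358) and 1455789_x_at to -0.51 (0.0446), and Hsp90aa1 1433251_at to -0.49 (0.0318). That centring subtracts the CD3 shift from every probe set, and which scaling fits these suspensions was not tested. Among the 8 called probe sets, Hspd1 1426351_at kept its call in all 18 alternatives run for it, and the other 7 lost theirs with unequal variances (adjusted p 0.0647 to 0.177), where each variance rests on 3 and 4 arrays alone. Median centring and a repeated quantile normalization left the same 8 called. Labels give no shared replicate numbers, so no paired analysis was possible because nothing pairs the arrays. Small differences at dim levels, as for Hspa1a, could not be resolved above background.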
